A study of Mus musculus with 5 samples.

Results

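The genes described here encode 46 regulators of chromatin and DNA methylation, taken as a fixed list of gene symbols and read from every array probe that the platform annotation gives to them. Of the 46, 42 had a named probe, with 99 probes in all, and 40 had a probe that passed the detection filter (above background on at least 2 of the 5 arrays). Those 40 stood among 10474 genes tested. The 2 members with probes but none that passed were Dnmt3a and Tet3, and Hdac1, Chd7, Tet2 and Ncor1 were not analysed here.

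RNA of 5 end-stage mouse medulloblastomas was measured on Illumina bead arrays, 1 array per tumour. All 5 carried SmoA2, an activating form of the hedgehog signal transducer Smoothened. Of these, 3 tumours had both copies of the muscle transcription factor gene Myod1 (MyoD+/+;SmoA2, called tumours 1 to 3 in accession order) and 2 had lost 1 copy (MyoD+/-;SmoA2, tumours 1 and 2). The promoter that drives SmoA2, the ages of the mice and the altered part of Myod1 are not given in the sources used here, and the labels leave it unsaid whether the tumours are from separate mice, so p-values measure only the spread among these samples.

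Chromatin regulators act in complexes. BAF remodellers slide or evict nucleosomes with the energy of ATP, Polycomb complexes place repressive marks on histones, Mll enzymes place an activating methyl mark, and NuRD joins a remodeller to histone deacetylases. Dnmt enzymes methylate cytosine in CpG pairs and Tet enzymes oxidise that methyl group. In human medulloblastoma of the hedgehog group, genes of this class are known to be recurrently mutated, CREBBP, KMT2D and SMARCA4 among them.

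On each array 37.0% to 39.9% of 45281 probes were above background. Levels below are log2 values after background correction, an added offset of 16 and quantile normalization, and the number of arrays limits their precision. Myod1 stood at 7.25, 6.38 and 7.08 in the MyoD+/+ tumours and at 6.31 and 6.67 in the MyoD+/- tumours, so the genotypes overlapped at this probe. Markers of granule neuron precursors, the cells from which hedgehog medulloblastoma arises, passed the filter in 9 of 14 cases with a probe, with the granule factor Zic1 between 11.95 and 12.18 in all 5 tumours, while Atoh1, Gli1, Pax6, Zic5 and Nhlh1 did not pass. Summed on the linear scale, the 8 of 9 probed oligodendrocyte markers that passed ranged from 5719 to 7665 in MyoD+/+ and from 3130 to 3531 in MyoD+/-, and Ermn did not pass. Astrocyte markers were lower in MyoD+/- for 8 of 10 (median log2 difference -0.08) and endothelial markers for 7 of 8 (-0.11). Microglia and macrophage markers were higher for 5 of the 8 that passed (0.16), and Itgam did not pass. These are bulk tumours, in which fewer cells of a type and less RNA per cell cannot be told apart, and the part of cell makeup in the values below was not tested.

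No chromatin regulator differed between the genotypes past the test, and all but Mbd2 differed by less than 0.50 on the log2 scale. Of the 40 tested members, 0 passed a limma adjusted p of 0.05 (0% of all genes tested, with a smallest adjusted p among members of 0.911). In direction, 22 were higher and 18 lower in MyoD+/-, and they had a median log2 difference of 0.02 against 0.00 over all genes. With median scaling in place of quantile normalization the split was 35 and 5, as the median of all genes moved to 0.14. At an unadjusted p under 0.05 there was 1 member, Mbd2, which is 2.50% of those tested, where 5.26% of all genes were at that level. The 95% interval of the difference excluded a 2-fold change either way for 38 of the 40 members (95%, against 87.7% of all genes) and a 1.5-fold change for 25. The exceptions at 2-fold were Ezh1 and Mbd2. The intervals are on the normalized scale, where the offset makes differences of dim probes smaller. A p that misses the threshold does not show that the genotypes were alike, and the intervals give what the 5 arrays can bound.

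**Figure D1:**
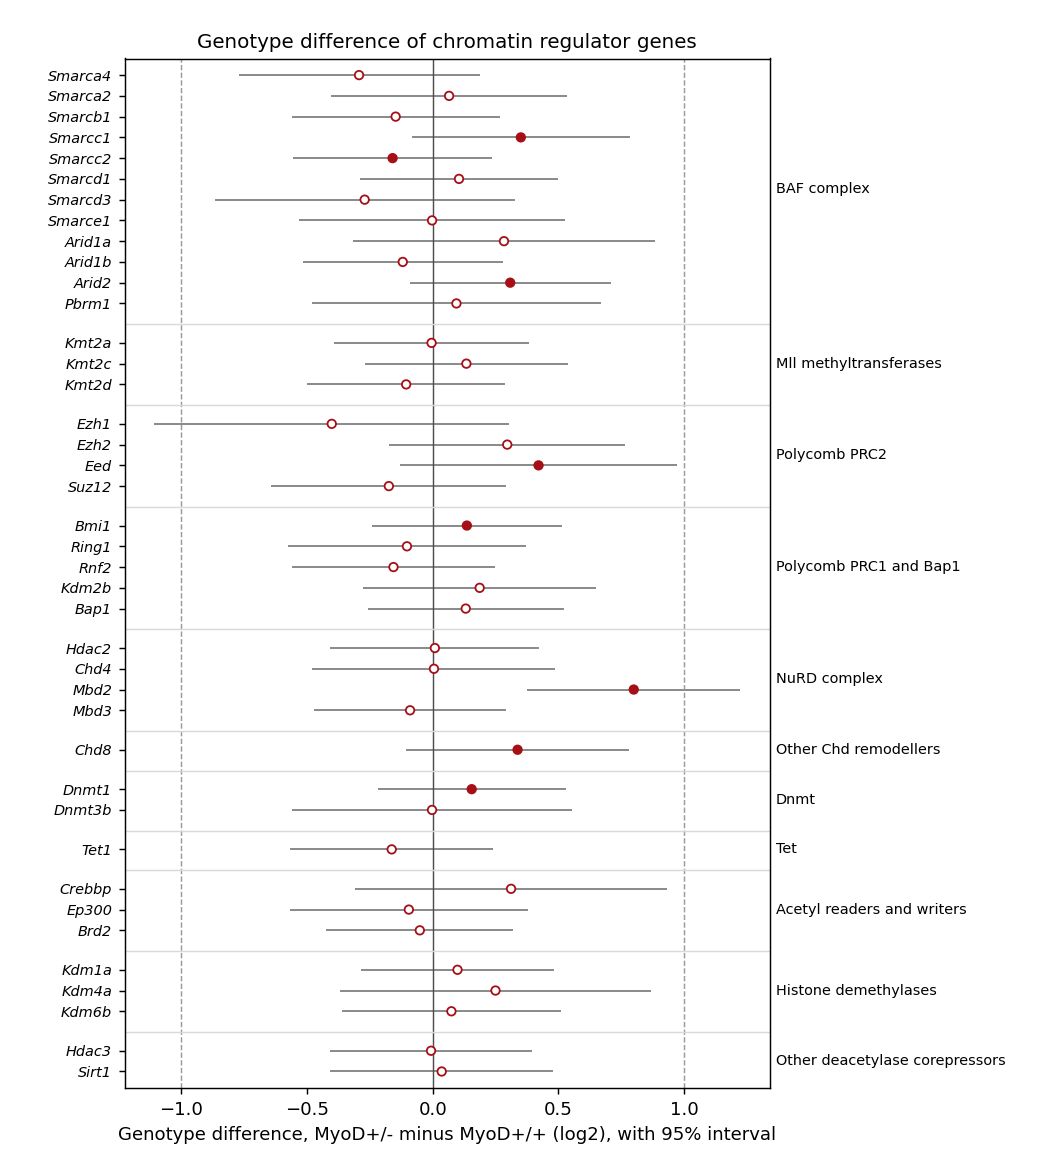
Genotype difference of each of the 40 tested genes (MyoD+/- minus MyoD+/+, log2) with its 95% interval, ordered by complex. Filled points mark genes whose genotype groups did not overlap, dashed lines mark a 2-fold change, and 38 of the intervals lie within those lines.

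The groups did not overlap for 8 members, or 20.0%, where 20.9% of all genes were apart. Of these, 7 were higher in the MyoD+/- tumours (Smarcc1, Arid2, Eed, Bmi1, Mbd2, Chd8 and Dnmt1), a direction that held for 10.0% of all genes. Smarcc2 was lower, as were 10.9% of all genes. The overall share is near the background and is not a result about these genes. Among the members apart, the difference ran from -0.16 for Smarcc2 to 0.80 for Mbd2.

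The promoters of the members of smallest p that have one in the RefSeq table (build GRCm38.p6) are shown to give the sequence from which these transcripts start. Each is the 250 bases before the annotated start, 5′ to 3′ on the gene's strand, and capitals mark CpG pairs, the site of DNA methylation and of binding by CpG-reading chromatin proteins. The Smarcc1 window lies at chr9:110131774-110132023 on the plus strand and holds 21 CpG pairs. The Eed window lies at chr7:89980977-89981226 on the minus strand and holds 12. The Chd8 window lies at chr14:52257761-52258010 on the minus strand and holds 20.
Smarcc1: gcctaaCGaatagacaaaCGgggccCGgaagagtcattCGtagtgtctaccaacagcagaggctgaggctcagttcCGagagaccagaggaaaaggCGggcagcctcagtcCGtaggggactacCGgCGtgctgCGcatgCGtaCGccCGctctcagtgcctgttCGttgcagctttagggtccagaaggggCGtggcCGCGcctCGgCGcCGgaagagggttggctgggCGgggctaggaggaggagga
Eed: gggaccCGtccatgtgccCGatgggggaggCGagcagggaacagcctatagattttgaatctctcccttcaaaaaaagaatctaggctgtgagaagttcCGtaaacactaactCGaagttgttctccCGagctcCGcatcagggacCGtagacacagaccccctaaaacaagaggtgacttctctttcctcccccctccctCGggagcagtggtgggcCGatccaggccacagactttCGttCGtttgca
Chd8: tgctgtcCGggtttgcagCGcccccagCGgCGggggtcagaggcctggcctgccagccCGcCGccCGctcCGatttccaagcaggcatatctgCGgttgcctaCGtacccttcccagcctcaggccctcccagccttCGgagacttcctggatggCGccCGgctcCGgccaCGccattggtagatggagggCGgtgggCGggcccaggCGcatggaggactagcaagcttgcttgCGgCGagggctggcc

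Of the 46 members, 39 had an entry there, with 51 windows since several genes have more than 1 start and such windows can overlap. The median was 25 CpG pairs per window, against 6 over 32851 windows of the same length from all genes. At least 15 pairs were found in 41 of the 51 windows (80.4%), against 27.3% of all windows. The windows held between 2 and 51 pairs, and those before the 3 annotated starts of Dnmt1, the maintenance methyltransferase, held 2, 7 and 26. The letters CAGCTG, an E-box of the kind MyoD binds, read the same on both strands and were present in 2 of the 51 windows (3.92%), 1 of Smarcd3 and 1 of Ring1, against 13.0% of all windows. A match is a description of the letters and not a binding site. The windows of all genes come from 27025 genes, whether detected here or not, while most members were detected. Whether the CpG and E-box shares are particular to chromatin regulators was not tested.

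The BAF complex was measured through 12 members, all of which passed, on 20 probes. Of these, 6 were higher and 6 lower in MyoD+/-, at a median log2 difference of 0.03 and a range from -0.29 to 0.35. The complex has alternative ATPase motors. Smarca4, the main ATPase of dividing neural precursors, stood at 8.48, 8.84 and 8.31 in the MyoD+/+ tumours and at 8.31 and 8.19 in the MyoD+/- tumours (log2 level). MyoD+/+ tumour 2 was highest, MyoD+/+ tumour 3 and MyoD+/- tumour 1 met, with a difference of -0.29 ± 0.20 (SE, n = 3 and 2; limma adjusted p = 0.957). Smarca2, the other ATPase, stood at 10.93, 10.83 and 11.31 and at 11.03 and 11.15, with MyoD+/+ tumour 3 highest and overlapping groups. Its difference was 0.07 ± 0.20, with a 95% interval from -0.40 to 0.53.

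Of the paralogous BAF scaffold genes, neither passed the test. Smarcc1 stood at 7.60, 7.36 and 7.29 in the MyoD+/+ tumours and at 7.90 and 7.64 in the MyoD+/- tumours. Both MyoD+/- tumours were above all others, by as little as 0.04 between MyoD+/- tumour 2 and MyoD+/+ tumour 1, and the difference was 0.35 ± 0.18 (limma adjusted p = 0.945). Its paralogue Smarcc2 stood at 9.47, 9.42 and 9.68 against 9.37 and 9.36, the lowest values being those of the MyoD+/- tumours. That difference was -0.16 ± 0.17 (limma adjusted p = 0.963) and turned to 0.02 with median scaling, and the difference between the paralogues' differences was not tested.

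Among the subunits that set the type of BAF complex, Arid2, which defines the polybromo form, was higher in both MyoD+/- tumours. It stood at 8.60, 8.48 and 8.34 against 8.72 and 8.85, a difference of 0.31 ± 0.17 (limma adjusted p = 0.945). Its partner in that form, Pbrm1, stood at 11.07, 11.48 and 10.73 against 11.30 and 11.08, a difference of 0.09 ± 0.25 (limma adjusted p = 0.987). Both its highest and its lowest level lay in MyoD+/+ tumours. Arid1a, of the canonical form, stood at 6.74, 6.32 and 6.17 against 7.0 and 6.39. MyoD+/- tumour 1 was highest and the other MyoD+/- tumour lay among the MyoD+/+ values (difference 0.28 ± 0.26; limma adjusted p = 0.957). Its paralogue Arid1b stayed between 10.55 and 10.79 on the probe that represents it (difference -0.12 ± 0.17).

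Smarcd3 encodes a BAF subunit known to partner MyoD in muscle precursors. It stood at 7.21, 6.50 and 7.09 in the MyoD+/+ tumours and at 6.49 and 6.84 in the MyoD+/- tumours. MyoD+/+ tumour 2 and MyoD+/- tumour 1 were both low, the groups overlapped, and the difference was -0.27 ± 0.25 (limma adjusted p = 0.957). Of the remaining BAF subunits, the core subunit Smarcb1, known as a tumour suppressor in rhabdoid tumours, ranged from 9.44 to 9.81. Smarce1 stood at 10.37, 11.04 and 10.75 against 10.74 and 10.69, a difference of 0.00 with an interval from -0.53 to 0.53, and its lowest and highest values were both MyoD+/+ tumours. Smarcd1 lay near background, between 5.16 and 5.47, and was detected on 4 arrays.

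Polycomb repressive complex PRC2 methylates histone H3 through Ezh2 or Ezh1 with the subunits Eed and Suz12. Of these, 2 were higher and 2 lower in MyoD+/-, and the enzymes had opposite signs. Ezh2, the enzyme of dividing cells, stood at 9.63, 9.38 and 9.18 in the MyoD+/+ tumours and at 9.83 and 9.56 in the MyoD+/- tumours, where MyoD+/+ tumour 1 lay between both MyoD+/- values (difference 0.30 ± 0.20; limma adjusted p = 0.957). Ezh1, the enzyme more common in resting cells, stood at 6.12, 6.22 and 5.29 against 5.31 and 5.64. MyoD+/+ tumour 3 was the lowest of all, below both MyoD+/- tumours, and the difference of -0.40 ± 0.30 (limma adjusted p = 0.957) had an interval from -1.11 to 0.30. The difference between the enzymes' differences was not tested.

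Eed, which reads the PRC2 mark, stood at 7.03, 6.31 and 6.67 against 7.03 and 7.14. The groups were apart by less than 0.01, between MyoD+/+ tumour 1 and MyoD+/- tumour 1, and the difference was 0.42 ± 0.23 (limma adjusted p = 0.945). A second probe of Eed that passed, on 4 arrays, gave -0.02 ± 0.19. Suz12, which the complex needs for its assembly, was lowest at 11.07 in MyoD+/- tumour 2 and lay between 11.43 and 11.58 elsewhere, with a difference of -0.17 ± 0.20.

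Polycomb repressive complex PRC1 places ubiquitin on histone H2A. Bmi1, its subunit known for neural stem cell and granule precursor self-renewal, stood at 7.58, 7.50 and 7.67 against 7.71 and 7.73, apart but with a difference of 0.14 ± 0.16 that is smaller than its error. Of the ligases, Ring1 stood at 7.79, 7.93 and 8.08 against 7.60 and 8.05, so that the MyoD+/- tumours held the lowest and the second highest level (difference -0.10 ± 0.20). The other ligase, Rnf2, lay at background, between 4.89 and 5.22, and was detected on 2 arrays. Kdm2b, which brings a PRC1 form to CpG islands, was highest in MyoD+/- tumour 1 at 8.19 and ranged from 7.63 to 7.92 in the other tumours. Bap1, which removes the ubiquitin, was likewise highest there at 9.69 and lay between 9.39 and 9.50 elsewhere.

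Mll enzymes methylate histone H3 at active promoters and enhancers. On the probe that represents it, Kmt2a was among the steadiest members, between 11.13 and 11.31. The difference there was 0.00, with an interval from -0.39 to 0.38. A second, dimmer Kmt2a probe that passed ran from 8.27 to 8.76, with a difference of -0.11 ± 0.21. Kmt2c ranged from 9.56 to 9.88 and Kmt2d from 8.42 to 8.67, with differences of 0.13 ± 0.17 and -0.11 ± 0.17.

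In the NuRD group, Mbd2, a reader of methylated CpG that joins NuRD in place of Mbd3, had the smallest p of any member and ranked 24th of 10474 genes. Its signal before normalization, on the linear scale, was 187.9, 158.3 and 186.4 for MyoD+/+ and 218.7 and 248.6 for MyoD+/-. The normalized levels were 6.02, 5.83 and 5.92 against 6.55 and 6.89, so that both MyoD+/- tumours were above all MyoD+/+ tumours. The difference was 0.80 ± 0.18 (SE, n = 3 and 2), a fold of 1.74, with an interval from 0.38 to 1.22 and a limma adjusted p of 0.911. It was 0.32 when no background was taken off, and also in the log2 values that the authors deposited. The other Mbd2 probe was above background on 0 of 5 arrays, so no second measurement stands beside this difference.

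**Figure D2:**
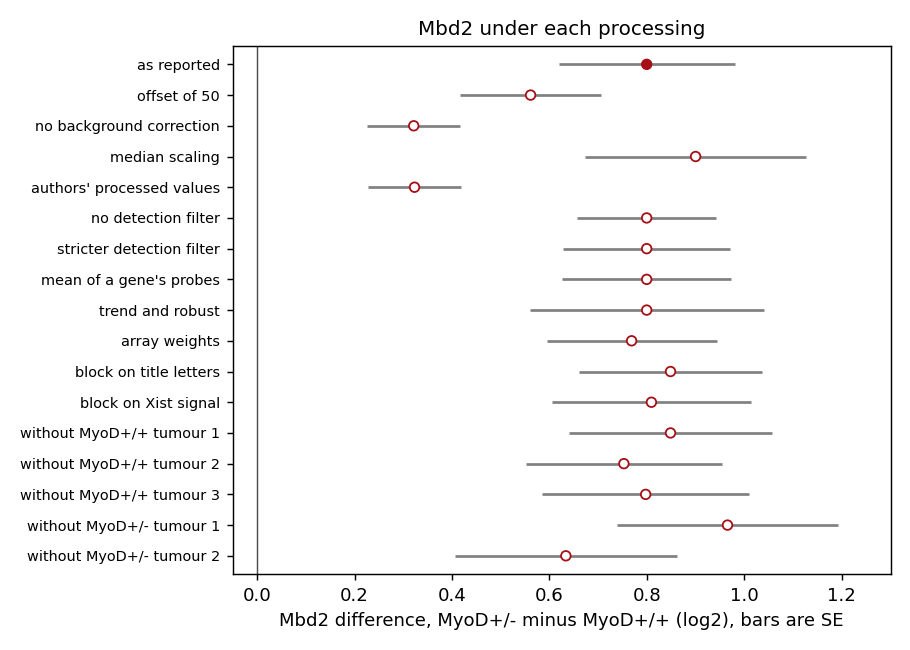
Mbd2 difference (MyoD+/- minus MyoD+/+, log2) with its SE, as reported (filled) and under 16 other processing settings (open). All lie above 0, from 0.32 without background correction to 0.97 without MyoD+/- tumour 1. Both MyoD+/- tumours lie above all MyoD+/+ tumours, so leaving out a tumour could not turn the sign.

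Mbd3, the alternative to Mbd2, stood at 9.43, 9.53 and 9.38 against 9.42 and 9.29, a difference of -0.09 ± 0.16 with an interval from -0.47 to 0.29. The difference between Mbd2 and Mbd3 was not tested. On the probes that represent them, Chd4, the NuRD remodeller, ranged from 9.79 to 10.28 and the deacetylase Hdac2 had its highest levels, 11.99 or more, in tumour 1 of each genotype, with differences of 0.00 ± 0.21 and 0.01 ± 0.18. Chd8, a remodeller of the same family known from autism genetics, stood at 9.84, 9.62 and 9.54 against 10.16 and 9.85. Its groups were apart by 0.01 at the nearest, between MyoD+/+ tumour 1 and MyoD+/- tumour 2, and the difference was 0.34 ± 0.19 (limma adjusted p = 0.945).

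DNA methylation enzymes showed no difference beyond their error. Dnmt1, which copies methylation onto new DNA strands, stood at 9.07, 9.0 and 9.09 in the MyoD+/+ tumours and at 9.27 and 9.15 in the MyoD+/- tumours. Both MyoD+/- tumours were higher, by 0.15 ± 0.16 on average (limma adjusted p = 0.963), and the interval ran from -0.22 to 0.53. Dnmt3b, a de novo methyltransferase, stood at 7.75, 8.29 and 7.86 against 8.20 and 7.72, with 1 tumour of each genotype high and the rest low. The difference was 0.00 ± 0.24. The other de novo enzyme, Dnmt3a, had 3 probes and none was above background on any array, with detection p-values from 0.216 to 0.942, which does not show that the transcript is absent.

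Of the Tet enzymes, Tet1 stood at 8.54, 8.29 and 8.54 against 8.36 and 8.23, overlapping, with a difference of -0.16 ± 0.17 (limma adjusted p = 0.963). All 3 probes of Tet3 were at background on every array (detection p-values from 0.135 to 0.766). Dnmt1, Dnmt3b and Tet1 are thus the 3 measured transcripts of this group.

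Crebbp, Ep300 and Brd2 also overlapped between genotypes on the probes that represent them. Crebbp, a histone acetyltransferase, stood at 6.77, 6.89 and 6.18 against 7.15 and 6.70, with MyoD+/+ tumour 3 lowest and MyoD+/- tumour 1 highest (difference 0.31 ± 0.26; limma adjusted p = 0.957). Its paralogue Ep300 stood at 9.38, 9.57 and 9.70 against 9.67 and 9.24, a difference of -0.09 ± 0.20. In Ep300 MyoD+/+ tumour 3 was highest, where it was lowest in Crebbp. Brd2, a bromodomain reader of acetylated histones, was the steadiest member, between 10.39 and 10.54 in all 5 tumours.

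The histone demethylases Kdm1a, Kdm4a and Kdm6b were all higher on average in the MyoD+/- tumours, with 0 passing, and Kdm4a and Kdm6b changed sign under at least 1 other processing setting. Kdm1a, which removes methyl groups from histone H3 as part of corepressor complexes, ranged from 10.85 to 11.09. Kdm4a was dim, at 5.79, 5.47 and 5.85 against 5.56 and 6.34, with the MyoD+/- tumours second lowest and highest and a difference of 0.25 ± 0.26. Kdm6b, which opposes PRC2 by removing its mark, stood at 9.53, 9.91 and 9.60 against 9.83 and 9.68 (difference 0.07 ± 0.19). The deacetylase Hdac3, catalytic partner of the nuclear receptor corepressors, lay between 10.16 and 10.38, and the NAD-dependent deacetylase Sirt1 stood at 8.10, 8.11 and 8.10 against 8.36 and 7.92, with the MyoD+/- tumours at both ends.

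**Figure D3:**
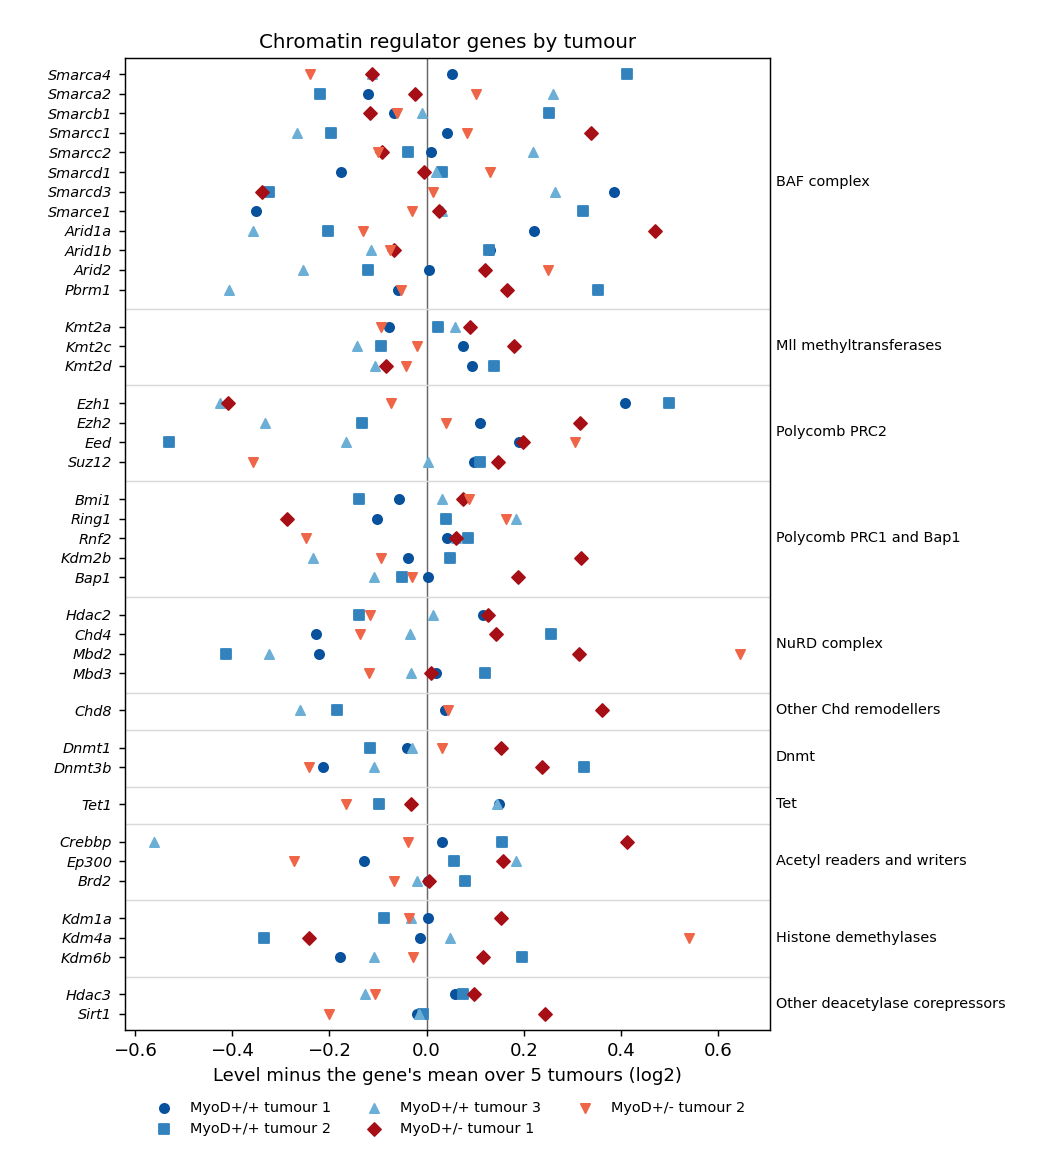
Level of each of the 40 tested genes in each tumour, minus that gene's mean over the 5 tumours (log2), ordered by complex. Blue symbols are the 3 MyoD+/+ and red symbols the 2 MyoD+/- tumours, and MyoD+/- tumour 1 (diamonds) is the highest for 15 genes.

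The range over the 5 tumours had a median of 0.46 over the 40 members, against 0.56 over all genes, and 11 members (27.5%) varied by less than 0.30, against 13.2% of all genes. Mbd2 had the widest range, 1.06, followed by Crebbp (0.97), Ezh1 (0.93), Kdm4a (0.88), Eed (0.84) and Arid1a (0.83). The narrowest were Brd2 (0.15), Kmt2a (0.18), Hdac3 (0.22) and Bmi1 (0.23). These ranges are of the probe that represents each gene. The widest members named had levels of 7.15 or less. Brd2, Kmt2a and Hdac3 lay at 10.16 or more, and Bmi1 between 7.50 and 7.73. Ranges and shares were not matched for level, and whether they are particular to these genes was not tested.

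Single tumours held more of the extremes than others. MyoD+/- tumour 1 held the highest level for 15 of the 40 members (37.5%, against 21.5% of all genes) and the lowest for 3 (7.5%, against 19.0%). MyoD+/+ tumour 3 held the lowest level for 14 members (35.0%, against 22.3%). Relative to each gene's mean, the members' median was 0.12 in MyoD+/- tumour 1 and -0.05 to 0.03 elsewhere. It was lowest in MyoD+/- tumour 2 (-0.05) and stood at -0.03 in MyoD+/+ tumour 3. The median of all genes lay between -0.01 and 0.02. These shares are a description of 5 tumours and carry no test.

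**Figure D4:**
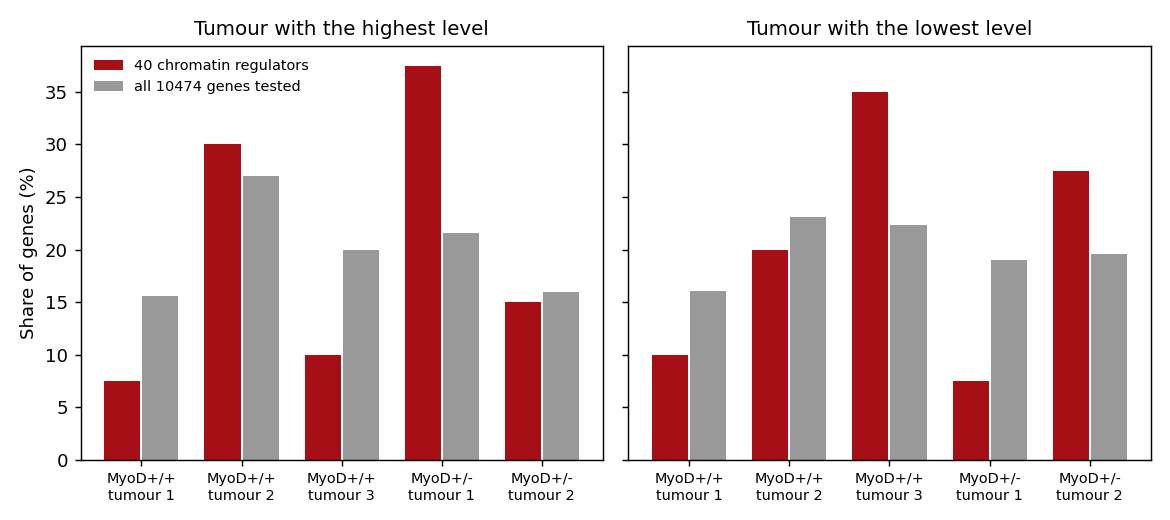
Share of genes whose highest (left) or lowest (right) level fell in each tumour, for the 40 chromatin regulators (red) and all 10474 genes tested (grey). MyoD+/- tumour 1 held the highest level for 37.5% of the regulators and MyoD+/+ tumour 3 the lowest for 35.0%.

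MyoD+/- tumour 1 and MyoD+/+ tumour 3, named above for their counts of extremes, stood at the ends of the proliferation markers by median. The members' own median was lowest in MyoD+/- tumour 2. Of 18 such markers 16 had a probe and 14 passed. In direction, 12 were higher and 2 lower in MyoD+/- (median log2 difference 0.14). Relative to each gene's mean, their median was 0.22 in MyoD+/- tumour 1, -0.19 in MyoD+/+ tumour 3 and -0.04 to 0.05 elsewhere. Summed on the linear scale, the 14 markers ranged from 10790 to 12870 in the MyoD+/+ tumours and from 11746 to 14806 in the MyoD+/- tumours, and Bub1 and Ccna2 did not pass. The microglia and macrophage markers had the same tumours at their ends, with medians of 0.19 in MyoD+/- tumour 1 and -0.30 in MyoD+/+ tumour 3. By these medians the granule precursor, oligodendrocyte, astrocyte and endothelial lists did not have this pair at their ends. Summed on the linear scale, the granule precursor list did, from 14446 in MyoD+/+ tumour 3 to 15815 in MyoD+/- tumour 1. The part of proliferation, or of microglia and macrophages, in the members' levels was not tested. Without MyoD+/- tumour 1 the members split 17 higher and 23 lower with a median difference of -0.025, and without MyoD+/- tumour 2 they split 27 and 13 with a median of 0.12.

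Many of the genes were read by several probes, which did not always point the same way. Of the 99 member probes, 55 were above background on all 5 arrays and 34 on none, and 61 passed. For 16 members, 1 probe was detected on every array while another was at background throughout, so a gene's reading depends on its probe. With each probe fitted alone, 0 of the 61 passed a limma adjusted p of 0.05 (0% of 18675 probes). At an unadjusted p under 0.05 there was 1, that of Mbd2, where 5.20% of all probes were at that level.

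More than 1 probe passed for 14 members. The signs agreed for 7 of these (Arid1b, Kmt2a, Suz12, Kdm2b, Hdac2, Chd4 and Crebbp) and were mixed for 7 (Smarca2, Smarce1, Pbrm1, Eed, Ring1, Ep300 and Kdm6b). Of the mixed 7, only 3 had a gap between probes above 0.30 (Pbrm1, Eed and Ring1), and the largest was 0.44, in Eed. Others were mixed around 0, such as Smarca2, between -0.06 and 0.07. The share of mixed signs over all genes was not computed. In Pbrm1, 5 probes ran from -0.08 ± 0.27 to 0.34 ± 0.21, and in Ring1 the probes gave -0.10 ± 0.21 and 0.27 ± 0.21. Crebbp was the most alike among the larger differences, at 0.31 ± 0.27 and 0.41 ± 0.32, and both its probes were lowest in MyoD+/+ tumour 3. In Arid1b a dimmer probe was apart between genotypes, at -0.41 ± 0.19, where the main probe was not. The differences between probes were not tested.

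**Figure D5:**
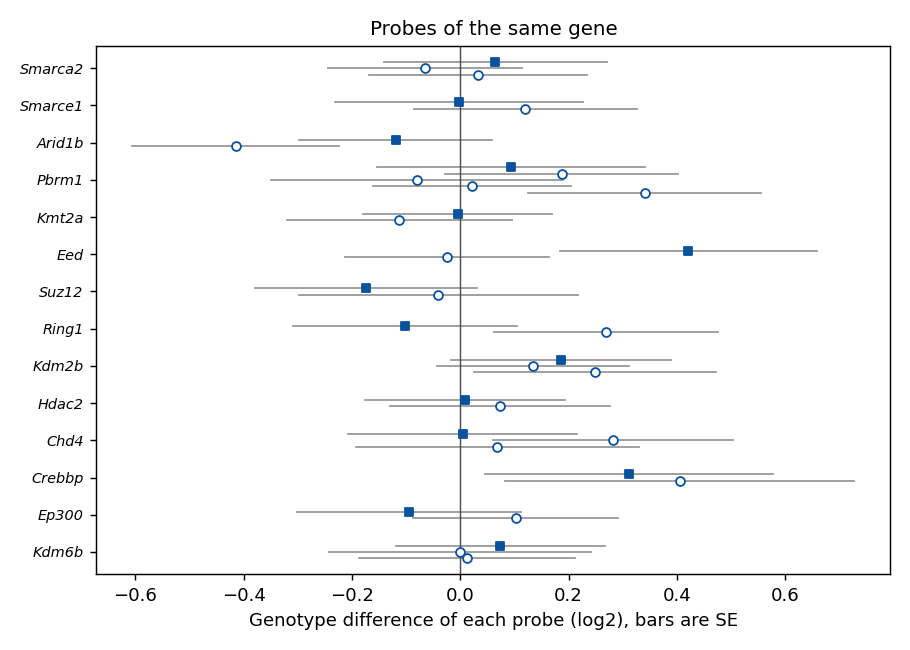
Genotype difference of every probe that passed (MyoD+/- minus MyoD+/+, log2) with its SE, for the 14 genes with more than 1 such probe. Filled squares are the probes that represent the gene and open circles the others, and 7 of the 14 genes have probes on both sides of 0.

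Beyond the 46 genes, a wider list of 108 partners of the same complexes had 102 genes with a probe and 92 tested. Of the 92, 49 were higher and 43 lower in MyoD+/-, the median log2 difference was 0.02, and 0 passed in either direction. At an unadjusted p under 0.05 there were 5 (5.43%, against 5.26% of all genes). They were Chd5, Cbx7, Gps2, Kat6a and Kdm5c. The probe that represents Kdm5c passed the detection filter only through the MyoD+/- tumours, where it is high. The filter thus favoured a difference at that probe, and its p is not support for one.

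Chd5, the neuronal remodeller of NuRD, stood at 7.09, 6.49 and 7.24 in the MyoD+/+ tumours and at 6.04 and 5.87 in the MyoD+/- tumours. Both MyoD+/- tumours were lower, by -0.98 ± 0.25 on the log2 scale (limma adjusted p = 0.911). A second Chd5 probe gave -0.84 ± 0.20. Cbx7, the PRC1 subunit that reads the PRC2 mark, stood at 7.27, 7.23 and 7.11 against 6.57 and 6.70, a difference of -0.57 ± 0.16 (limma adjusted p = 0.911).

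Gps2, a subunit of the nuclear receptor corepressor complex, stood at 7.58, 7.14 and 7.51 against 7.91 and 7.92, a difference of 0.50 ± 0.19 (limma adjusted p = 0.911). The acetyltransferase Kat6a stood at 5.51, 5.43 and 5.54 against 6.07 and 5.75, a difference of 0.42 ± 0.18 (limma adjusted p = 0.943). For the demethylase Kdm5a the levels were 6.33, 6.08 and 6.29 against 6.46 and 6.75, a difference of 0.37 ± 0.18 (limma adjusted p = 0.945). Both were higher in each MyoD+/- tumour than in any MyoD+/+ tumour. Setd1a, a methyltransferase of the Mll type, was lower in both MyoD+/- tumours, at 8.84, 9.07 and 8.84 against 8.72 and 8.36 (difference -0.38 ± 0.19; limma adjusted p = 0.945). Tbl1x, another corepressor subunit, overlapped at 8.42, 8.07 and 7.70 against 8.68 and 8.40 (difference 0.48 ± 0.24; limma adjusted p = 0.945), and its second probe gave -0.06 ± 0.17. The X-linked demethylase Kdm5c was not well above background in any MyoD+/+ tumour on its main probe. It stood at 4.69, 4.55 and 4.89 against 5.42 and 5.92. On this probe, kept only through the MyoD+/- tumours, the group means (4.71 and 5.67) put MyoD+/- at least 1.34-fold higher. That bound sets the bright group's mean against, per array, the higher of the dim probe's level and the lowest level above background. The other Kdm5c probe went the other way, above background in 2 MyoD+/+ tumours and 0 MyoD+/- tumours. By its means it was at least 1.03-fold lower in MyoD+/-. Both bounds are of group means without an error, and the probes together give no direction for the gene.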

How the data were processed

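Probe signals of 5 tumours were analysed. The authors deposited a signal intensity per probe and array, not normalized per the file headers, with a detection p-value beside each, and a table of log2 values that carry the same distribution on every array. The scanner software was not given in the sources used here. The main values came from the intensities by limma 3.58.1 (neqc: normexp background correction from detection p-values, offset 16, quantile normalization, log2). A probe was kept if its detection p was below 0.05 on 2 or more arrays (18675 probes), and the one of highest mean level represented each gene. Names came from the platform annotation, where 34885 probes had 1 symbol, 18 several and 10378 none here. RefSeq symbols, matched through Entrez identifiers, changed 0 names.

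Genotypes were compared with lmFit and eBayes, two-sided, group as the only term, with Benjamini-Hochberg adjustment over all genes (or probes) and a threshold of 0.05. The code was tested on simulated data. The members and lists were chosen with earlier results of these data known. Tumour values are given for the 12 members of smallest p, Mbd2, Mbd3, the Dnmt and Tet genes and members with probes of mixed sign, and the 8 wider-list genes of smallest p; others were added after their values were seen. Alternatives covered offset, background, scaling, filter, probe choice, variance model, array weights, title letters and Xist signal as blocks, and each tumour left out. Xist was above background in tumour 1 of each genotype (10.58 in MyoD+/+ and 11.06 in MyoD+/-) and not in the others (4.57 to 4.64).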

Additional observations from a re-analysis of the deposited data

How the results depend on the processing

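The count of members past an adjusted p of 0.05 was 0 under all 16 alternatives, and so was the count of member probes in the 15 of them that keep probes apart; the smallest adjusted p of any member under any of them was 0.588. At an unadjusted p under 0.05 the count was 1 as reported and 2 with median scaling (Mbd2 and Chd8) and with the title letters as a block (Mbd2 and Eed). It was 1 to 2 when 1 MyoD+/+ tumour was left out: Eed joined Mbd2 without MyoD+/+ tumour 1, and Ezh1 without MyoD+/+ tumour 3. The letters AI belong to MyoD+/+ tumour 1 alone. The block on title letters therefore gives the same differences as leaving that tumour out, and these 2 of the 16 alternatives are not separate. Without 1 MyoD+/- tumour the lone one left is assumed to vary like the MyoD+/+ tumours, so this count is not given for those fits. The members' median difference, 0.02 as reported, was 0.21 with median scaling, which shifted the median of all genes to 0.14 and the split to 35 higher and 5 lower; the members stood 0.07 above that shift, 27 above and 13 below it. It was 0.078 with array weights and ran from -0.025 (without MyoD+/- tumour 1) to 0.12 (without MyoD+/- tumour 2) when tumours were left out; the cause was not tested. Of the 40 members, 18 kept their sign under every alternative that gave them a value and 22 did not, none of them past the threshold. Sign changes made up 52 of 636 values. The Mbd2 difference ran from 0.32 to 0.97. The replicate numbers follow accession order and pair no tumours. Depth here is signal over background: Mbd2, Smarcd1, Rnf2, Kdm4a and Ezh1 lie close to it, where the offset makes differences smaller.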
